A study of Drosophila melanogaster with 4 samples.

Results

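The Spn77B neighbourhood is a run of 7 adjacent genes on chromosome arm 3L of Drosophila melanogaster, which from polo towards eRF1 are Snap, CR43875, Spn77Ba, Spn77Bb, CG6434, Spn77Bc and Rbbp5. The 7 genes were chosen by their measured values, because these neighbours all had higher RNA levels after Piwi RNA interference in the same 4 libraries described here. They are 7 of 15495 genes in the expression table, and all 7 passed the filter on low values along with 8313 genes in all. Their difference between the groups is therefore given as a description, without a test.

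The study compared intestinal stem cells, the dividing cells that renew the gut lining of the adult fly, after RNA interference against Piwi or against mCherry. mCherry is a fluorescent protein foreign to the fly, so that hairpin is the control. Both groups were held at 29 °C for 7 days to express the hairpin, and each has 2 libraries, each from sorted cells of a pool of 100 guts. The mCherry RNAi libraries are labelled with a yw source and the Piwi RNAi libraries with a PiwiRNAi source. The source thus differs with the hairpin, so the knockdown and any other difference between the sources cannot be told apart. The driver, the hairpin lines and their insertion sites were not given. Nor were the age and sex of the flies or any genetic background that both groups share.

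Serpins are protease inhibitors that act as bait. The target protease cuts an exposed loop of the serpin, which then folds over and traps the enzyme. In the fly, Spn77Ba is known for restraining the protease cascade that leads to melanization in the airways. Piwi is an Argonaute protein that, guided by small RNAs, silences transposable elements in the gonads and in the somatic cells around them.

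The libraries were as follows. The values are in FPKM, a fragment count divided by transcript length and by library size, and summed to between 900475 and 1050749 per library, and the depth estimated from the smallest steps of these values was 1610000 to 2280000 fragments. The targeted gene, piwi, had 0.495 and 1.94 FPKM in the mCherry RNAi libraries and 0.208 and 0.442 FPKM in the Piwi RNAi libraries. These values were too low to be tested, so they do not establish the knockdown. The stem cell and enteroblast markers esg, Dl, Sox21a, klu and N were present in every library, with a summed level of 353.6 and 452.7 FPKM in mCherry RNAi against 650.1 and 603.3 FPKM in Piwi RNAi. Markers of differentiated gut cells differed between libraries. The 7 enterocyte markers summed to 13288 FPKM in mCherry RNAi replicate 1, against 1224 FPKM in replicate 2 and 1375 and 662 FPKM in Piwi RNAi. The 7 enteroendocrine markers summed to 2792 and 5503 FPKM in mCherry RNAi and to 261.1 and 477.5 FPKM in Piwi RNAi. In these pooled cells, fewer cells of a type and less RNA per cell cannot be told apart, and the part of these differences in the values below was not tested.

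The layout of the stretch was read from the Ensembl BDGP6.54 annotation, which was matched to the table by gene identifier. The genome build behind the deposited values was not given, so only order, strand, lengths and distances are taken from that annotation. The 7 genes span 34.3 kb. Snap, Spn77Ba, Spn77Bb and Spn77Bc lie on the plus strand and CR43875, CG6434 and Rbbp5 on the minus strand. CG6434 is separated from Spn77Bc by 19.4 kb, which holds 5 annotated copies of transposable elements and no gene. These are a copy of the non-LTR element Rt1b and copies of the LTR retrotransposons Quasimodo, 17.6, Idefix and mdg3, with 17.6, Idefix and mdg3 lying inside the span of Quasimodo. The expression table matched 0 rows to the 5896 annotated transposable element copies, so their RNA was not analysed here, and whether the flies used carry these copies was not given.

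The genes on the far sides of this gap resemble each other in structure. Spn77Bb and Spn77Bc share a run of 2 exons and 3 introns of equal length, with exons of 304 and 354 nt and introns of 67, 67 and 57 nt. CG6434, called CR6434 and annotated as a pseudogene in BDGP6.54, shares with Rbbp5 a run of exons of 182 and 120 nt and introns of 62, 53 and 59 nt. The pairs thus repeat in the same order, Spn77Bb with CG6434 on the one side and Spn77Bc with Rbbp5 on the other. An eighth annotated gene of the stretch, the pseudogene CR45385, overlaps Rbbp5 by 299 nt on the opposite strand and had no matching row. Equal lengths do not show how alike the sequences are, which was not analysed here, so the split of reads within each pair is uncertain.

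**Figure D1:**
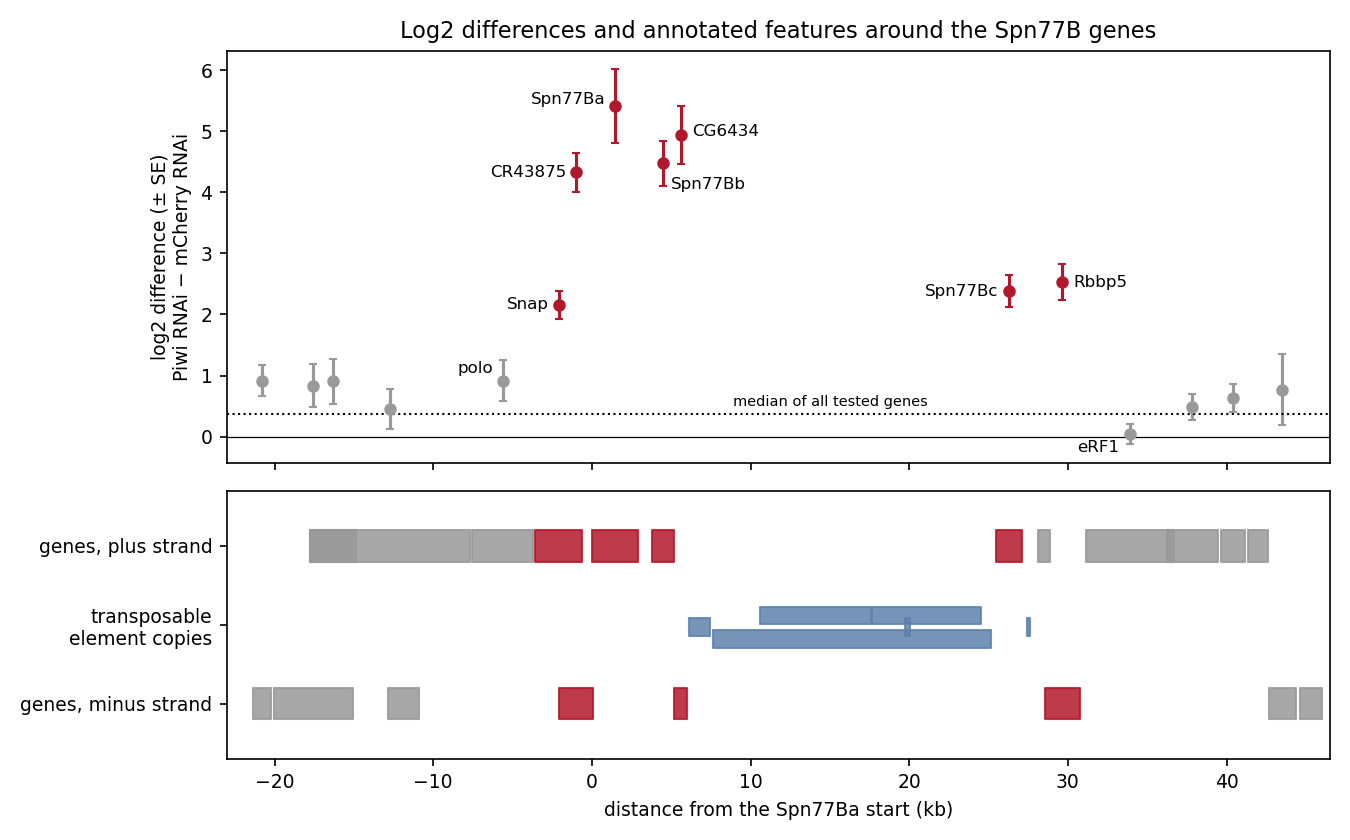
Top, log2 difference (log2(FPKM + 1), Piwi RNAi minus mCherry RNAi, with its standard error, 2 libraries per group) of each tested gene at the midpoint of its span, against distance from the Spn77Ba start in kb; red marks the 7 genes, grey the others, and the dotted line the median of all tested genes. Bottom, annotated genes by strand and transposable element copies on the same axis, to scale. The 4 genes from CR43875 to CG6434 lie at 4.33 to 5.41, Snap, Spn77Bc and Rbbp5 at 2.16 to 2.53, and the neighbours polo and eRF1 at 0.92 and 0.03.

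For each of the 7 genes the lower Piwi RNAi value exceeded the higher mCherry RNAi value. The same held for 51.5% of the 8313 tested genes, so the absence of overlap sets the 7 apart less than the size of their differences. A log2 difference of 2 or more, on the log2(FPKM + 1) scale used throughout, was reached by all 7 and by 0.638% of tested genes. All 7 were among the 51 genes called higher across the table, at a limma adjusted p under 0.05, which are 0.613% of those tested; since these values chose the genes, nothing is read from either count. The median log2 difference of the 7 was 4.33, beside 0.37 for all tested genes. In the fit as reported, the 4 largest differences of the whole table belonged to Spn77Ba, CG6434, Spn77Bb and CR43875, in that order. Other settings moved these ranks.

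**Figure D2:**
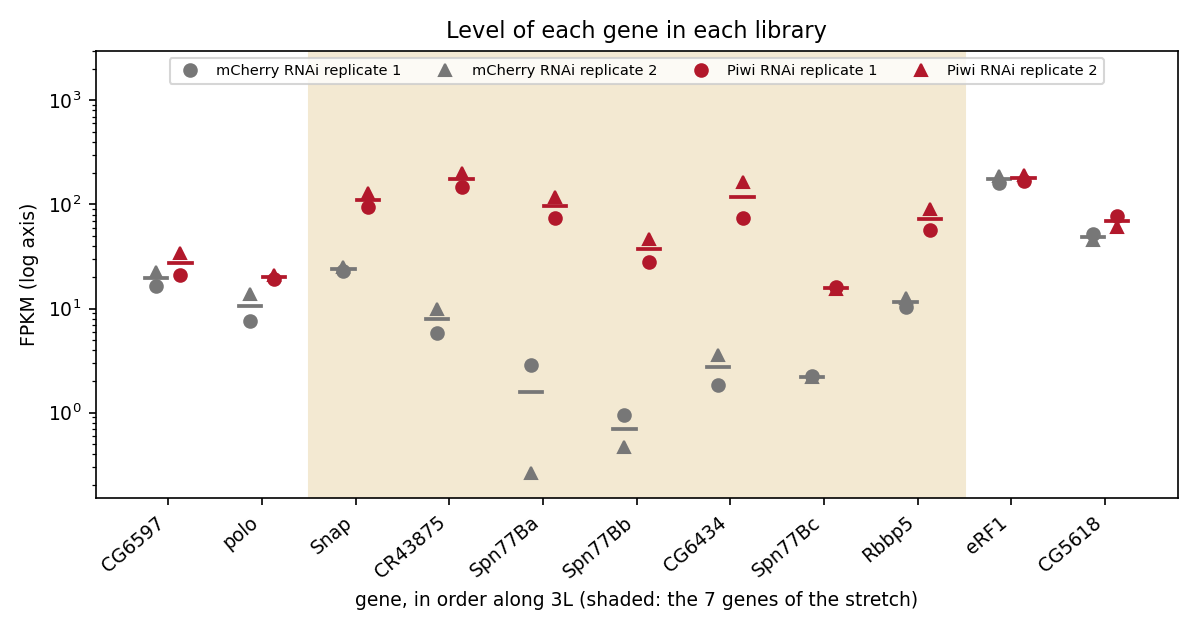
FPKM (log axis) of the 7 genes and the next 2 named genes on each side, in order along 3L, in each library; horizontal bars are group means of 2 libraries. Within the shaded stretch the Piwi RNAi values sit above the mCherry RNAi values for every gene, by the widest margin from CR43875 to CG6434, while the groups overlap at CG6597 and eRF1.

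Of the serpins, Spn77Ba (FBgn0262057) had 2.86 and 0.264 FPKM in the mCherry RNAi libraries and 73.7 and 117.9 FPKM in the Piwi RNAi libraries. Its lowest Piwi RNAi value was 25.8 times its highest mCherry RNAi value. The level thus went from rank 7032 and 9240 to rank 1098 and 732 among the 15495 genes of each library. Its log2 difference of 5.41 ± 0.60 (limma standard error, n = 2 per group) was the largest of the table.

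Spn77Bb (FBgn0036969), the next serpin gene on the same strand, had 0.940 and 0.462 FPKM in mCherry RNAi against 28.2 and 46.9 FPKM in Piwi RNAi. It was the lowest of the 7 in the control libraries by group mean, at 0.701 FPKM. It thus passed the filter, a mean of at least 1 FPKM over all libraries, only through its Piwi RNAi values. The log2 difference was 4.47 ± 0.36. Its structural counterpart Spn77Bc (FBgn0036970) had 2.24 and 2.20 FPKM in mCherry RNAi against 16.3 and 15.3 FPKM in Piwi RNAi, a log2 difference of 2.38 ± 0.26. The order of this pair turned over between the groups, with Spn77Bc above Spn77Bb in both mCherry RNAi libraries and Spn77Bb above Spn77Bc in both Piwi RNAi libraries.

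The other structural pair showed the same turn. CG6434 (FBgn0036972) had 1.83 and 3.60 FPKM in mCherry RNAi against 74.2 and 163.3 FPKM in Piwi RNAi, a log2 difference of 4.94 ± 0.47. Rbbp5 (FBgn0036973), a core subunit of the complexes that methylate lysine 4 of histone H3, had 10.4 and 12.7 FPKM in mCherry RNAi against 56.6 and 89.7 FPKM in Piwi RNAi, a log2 difference of 2.53 ± 0.30. Rbbp5 was above CG6434 in both control libraries and below it in both Piwi RNAi libraries. In each pair the member on the side of the element copies that faces Spn77Ba had the larger difference.

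At the other end of the stretch, Snap (FBgn0250791) encodes alpha-SNAP, which works with the ATPase NSF to take apart SNARE complexes after membrane fusion. It had 23.0 and 25.0 FPKM in mCherry RNAi against 95.1 and 127.9 FPKM in Piwi RNAi. It was the best expressed of the 7 in the control libraries and had the smallest log2 difference, 2.16 ± 0.23. CR43875 (FBgn0264467), an antisense RNA gene that reaches from Snap into the start of Spn77Ba, had 5.80 and 9.98 FPKM in mCherry RNAi against 147.9 and 201.4 FPKM in Piwi RNAi. With a mean of 174.6 ± 37.9 FPKM (SD, n = 2), it was the highest of the 7 in Piwi RNAi, and its log2 difference was 4.33 ± 0.32. Of the 798 nt of its exons, 311 nt lie opposite Snap exons and 94 nt opposite a Spn77Ba exon, which leaves 393 nt shared with neither. The strand setting of the counting was not given, so reads of the shared bases cannot be told apart between these genes.

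The levels of the 7 genes, which FPKM scales by length, were ordered differently in the groups. The order rests in part on how shared reads were split among CR43875, Snap and Spn77Ba and within each structural pair, which is uncertain. In mCherry RNAi the means ran from Snap at 24.0 FPKM through Rbbp5 at 11.6 and CR43875 at 7.89 to CG6434 at 2.72, Spn77Bc at 2.22, Spn77Ba at 1.56 and Spn77Bb at 0.701 FPKM. Snap, Rbbp5 and CR43875 did not overlap one another, while Spn77Ba overlapped CG6434, Spn77Bc and Spn77Bb. In Piwi RNAi the means ran from CR43875 at 174.6 FPKM through CG6434 at 118.8, Snap at 111.5, Spn77Ba at 95.8 and Rbbp5 at 73.1 to Spn77Bb at 37.6 and Spn77Bc at 15.8 FPKM. There each of the first 5 overlapped the next in this order, and Spn77Bb and Spn77Bc each stood below all the others.

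The low control values rest on few fragments. Multiplying each FPKM value by the transcript length and by the estimated depth gave about 11 and 1 fragments for Spn77Ba in mCherry RNAi replicates 1 and 2, against 227 and 515 in the Piwi RNAi libraries. For Spn77Bb the estimates were 2 and 1 against 47 and 110 fragments, for CG6434 they were 2 and 4 against 63 and 197, and for Spn77Bc they were 6 and 6 against 34 and 45. The values of these 4 genes were thus close to, but above, zero in the control libraries. Whether so few fragments came from these genes was not tested, as the split of shared reads is uncertain. For Spn77Bb and CG6434 the unrounded control estimates lay within 0.05 of a whole fragment.

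Ratios of fragments pooled over libraries and scaled to depth carry wide counting error for these genes. Piwi RNAi exceeded mCherry RNAi 65.3-fold for Spn77Ba, where the exact 95% interval (Clopper-Pearson) ran from 37.2 to 127.0, 55.3-fold for Spn77Bb (18.6 to 271.0) and 45.8-fold for CG6434 (20.8 to 125.9). These intervals overlap. For CR43875 the ratio was 22.4 (14.6 to 36.1), for Spn77Bc 6.96 (3.77 to 14.0), for Rbbp5 6.56 (5.19 to 8.39) and for Snap 4.77 (4.08 to 5.61). The intervals of Spn77Bc, Rbbp5 and Snap lie below those of the other 4 genes, narrowly so for Spn77Bc (up to 14.0) beside CR43875 (from 14.6). All of these intervals cover counting error, and neither the spread between pools of flies nor the uncertain split of shared reads. The same values chose the genes, so the intervals are a description and separate no gene from another.

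The Piwi RNAi libraries also differed from each other at these genes. Piwi RNAi replicate 2 was above replicate 1 by 2.20 times for CG6434, 1.66 times for Spn77Bb, 1.60 times for Spn77Ba, 1.59 times for Rbbp5, 1.36 times for CR43875 and 1.35 times for Snap, while Spn77Bc stood at 0.940 times. Over the 6385 genes with a Piwi RNAi mean of at least 5 FPKM the median of this ratio was 1.01, and 90% of genes lay between 0.570 and 1.50. CG6434, Spn77Bb, Spn77Ba and Rbbp5 were thus above the range of most genes. In the control libraries Spn77Ba differed in the other sense, with replicate 2 at 0.0924 times replicate 1.

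The differences were smaller just outside both edges of the stretch, though on the polo side some genes stayed above the median of all tested genes. Snap, the first gene inside, starts 165 nt after the end of polo, a kinase of mitosis, yet its log2 difference was 2.16 where that of polo was 0.92 ± 0.33 (7.51 and 13.7 FPKM against 19.3 and 20.9 FPKM; limma adjusted p = 0.177). The difference of polo was 0.52 without mCherry RNAi replicate 1, 1.31 without replicate 2 and 0.54 with median of ratios scaling. Rbbp5, the last gene inside, lies 412 nt from eRF1, the translation termination factor. eRF1 had 161.9 and 189.5 FPKM in mCherry RNAi against 168.8 and 190.6 FPKM in Piwi RNAi, a log2 difference of 0.03 ± 0.16 (limma adjusted p = 0.893). Its groups overlapped, and scaling by the median of ratios moved its difference to −0.37. No test of an edge gene against its inner neighbour is given, since the inner genes were chosen on this contrast.

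The flanking genes had smaller differences than any of the 7, though those of Clc, CG6480 and polo lay above the median of all genes with no overlap between the groups. Of polo, CG6597, CG6480, CG6951 and Clc, 0 passed the limma test and 2 had overlapping groups, CG6597 and CG6951. Clc, the clathrin light chain, had the smallest adjusted p of these, with 122.3 and 146.1 FPKM against 218.9 and 255.1 FPKM and a log2 difference of 0.82 ± 0.17 (limma adjusted p = 0.126). CG6480, annotated as FRG1, had a log2 difference of 0.92 and CG6951 one of 0.13, which median of ratios scaling turned to −0.22. The median of these 5 genes was 0.82, beside 0.37 for all tested genes.

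Over a wider window of the 10 nearest tested genes on each side, 0 of 20 passed the limma test, where 0.613% of all genes were called higher and 0.565% lower. At an unadjusted p under 0.05 in limma there were 6, where 2210 of all 8313 tested genes had one, so this count does not set them apart. The median log2 difference of the 20 was 0.44, beside 0.37 for all genes, and it was 0.060 with median of ratios scaling and 0.15 with quantile normalization. Of the 20, 12 had no overlap with Piwi RNAi higher, against 51.5% of all genes. The highest was CG6480, at 0.92, and the lowest CG17145, the tenth tested gene on the polo side, at −3.17 (22.2 and 20.3 FPKM against 3.19 and 0.449 FPKM; limma adjusted p = 0.0945). On the eRF1 side, CG5618 and kin17 had log2 differences of 0.48 and 0.64. On the polo side, Pex23 and CR43872 had 0.83 and 0.91 with no overlap between the groups, while Su(var)3-3 and CG17233 had 0.26 and 0.42. The spans of Pex23 and CR43872 overlap on opposite strands. As the strand setting was not given, their values may rest in part on the same reads.

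Runs of neighbouring genes called in the same direction were rare elsewhere. Of 8277 tested genes placed on a chromosome arm, the 7 genes formed the one run of adjacent genes called higher, and calls of lower genes formed 2 runs of 2 genes each, RpL12 with RpL39 and RpS7 with snoRNA:Psi18S-1377e. Counting genes by a log2 difference of 2 or more instead, 4 runs were found, the 7 genes and 3 runs of 2 genes each. The neighbourhood was chosen for this property, so its length is a description.

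The serpin genes elsewhere in the genome were mostly low. Of 25 further serpin rows 10 were tested, 0 passed in limma (2 had an unadjusted p under 0.05) and 8 rows were listed at 0 in every library. With 0.613% of all tested genes called higher and 0.565% lower, 0 of 10 does not set these serpins apart from other genes. Nor does the count at an unadjusted p under 0.05, which 2210 of all 8313 tested genes had in limma. Their median log2 difference was −0.76, below that of all tested genes, and it was 0.08 without mCherry RNAi replicate 1, the library with high enterocyte markers. The smallest p-values belonged to Spn6, named Spn55B in the gene name table, and Spn42Dc. Spn6 had 171.9 and 151.2 FPKM in mCherry RNAi against 99.9 and 69.3 FPKM in Piwi RNAi, a log2 difference of −0.95 ± 0.23 (limma adjusted p = 0.139). Spn42Dc had a log2 difference of −0.77 (limma adjusted p = 0.139), also with no overlap between the groups. The highest of the 10, picked after its values were seen, was Spn5, at 1.17 (15.3 and 5.15 FPKM against 19.8 and 23.3 FPKM; limma adjusted p = 0.213). In sum the other serpins reached 506.9 and 434.0 FPKM in mCherry RNAi against 385.3 and 302.6 FPKM in Piwi RNAi.

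Among genes of serine protease cascades, melanization and the Toll pathway, 1 of 18 tested genes passed, higher in Piwi RNAi, where 0.613% of all tested genes did. This was Sp7, a protease of the melanization cascade also known as MP2, with 9.42 and 11.3 FPKM in mCherry RNAi against 37.3 and 36.2 FPKM in Piwi RNAi. Its log2 difference was 1.74 ± 0.22 (limma adjusted p = 0.0485). The call was lost under 9 of 12 alternatives, among them each library left out (adjusted p from 0.105 to 0.547) and scaling by the median of ratios (adjusted p = 0.0681). MP1, a protease of the same cascade, had 60.1 and 59.8 FPKM against 50.3 and 49.3 FPKM, a log2 difference of −0.26 (limma adjusted p = 0.350). GNBP1, a recognition protein upstream of Toll, had a log2 difference of 0.60 (limma adjusted p = 0.219). The antimicrobial peptide gene Drs, a target of Toll, had 1.89 and 3.71 FPKM against 2.39 and 0 FPKM. The phenoloxidase gene proPO-A1 was listed at 0 in every library. MP1, Drs and proPO-A1 were picked after their values were seen. The list median was −0.25, and it was 0.28 when genes averaging under 5 FPKM were left out.

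The partners of Snap and Rbbp5 had medians near that of all tested genes. Of 24 tested SNAREs and SNARE disassembly genes 0 passed in limma (4 had an unadjusted p under 0.05), with a median log2 difference of 0.44. At the call shares of all genes, 0.613% higher and 0.565% lower, neither this count nor the 0 of the next list sets them apart. An unadjusted p under 0.05 in limma was held by 2210 of all 8313 tested genes. Nsf2, a partner ATPase of alpha-SNAP picked after its values were seen, had 8.44 and 10.1 FPKM against 9.92 and 19.4 FPKM, with overlapping groups. Use1 and Syx18, SNAREs of the endoplasmic reticulum, had the smallest p-values, at 1.13 and 0.90 on the log2 scale (limma adjusted p = 0.133 and 0.146). Of 12 tested genes of H3K4 methyltransferase complexes other than Rbbp5, 0 passed (2 at an unadjusted p under 0.05), with a median of 0.46, which was 0.26 without mCherry RNAi replicate 1 and 0.66 without replicate 2. Pa1 had a log2 difference of 1.55 ± 0.35 (limma adjusted p = 0.132) and Cfp1, a subunit that binds CpG DNA in other species, 0.77. The core subunits wds and ash2, which sit beside Rbbp5 in these complexes and were picked after their values were seen, had 0.75 and −0.07, and the latter had overlapping groups.

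**Figure D3:**
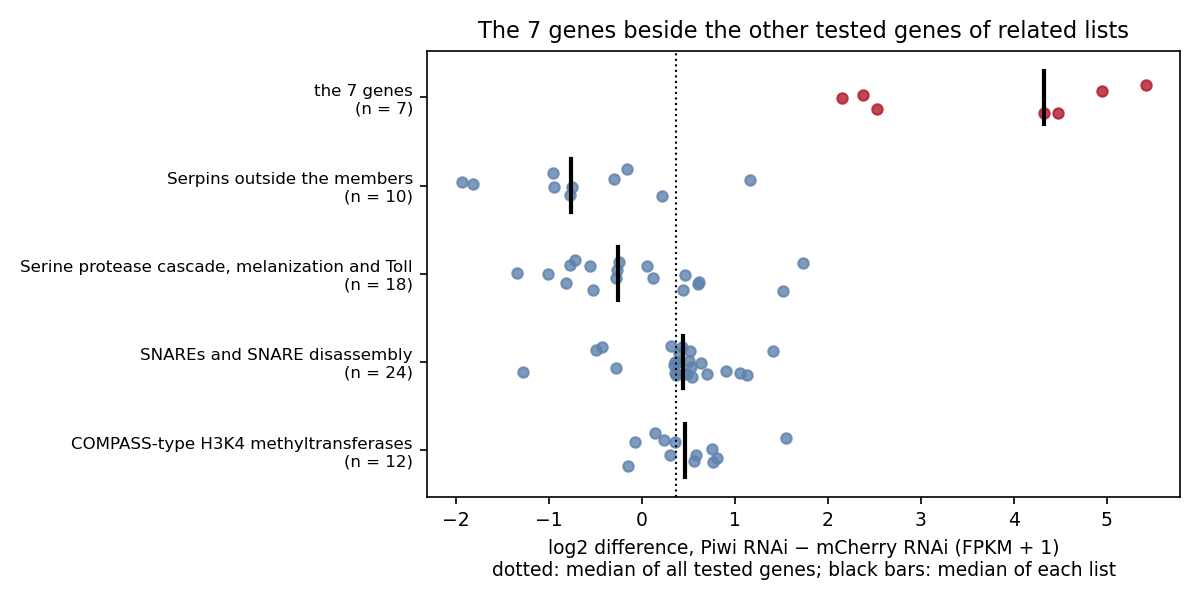
Log2 difference (log2(FPKM + 1), Piwi RNAi minus mCherry RNAi) of the 7 genes and of the tested genes of each related list; points are genes, black bars list medians and the dotted line the median of all tested genes, 0.37. The list medians lie between −0.76 and 0.46, and the highest gene of these lists is Sp7 at 1.74.

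Markers of cell types in which these genes could be found were looked at beside them. Spn77Ba is best known from the airways. Of 8 airway markers, trh had at most 0.437 FPKM and vvl was listed at 0 in every library, and the 8 summed to 16.2 and 20.7 FPKM in mCherry RNAi against 25.0 and 26.6 FPKM in Piwi RNAi. Of this sum in Piwi RNAi, 21.2 and 23.4 FPKM came from btl, which encodes the fibroblast growth factor receptor of the airways. The chitin deposition gene knk differed the other way, with 4.57 and 7.30 FPKM against 1.45 and 2.21 FPKM (log2 difference −1.28, limma adjusted p = 0.160). Levels of kkv and verm were at most 0.091 and 0.238 FPKM in any library, too low to be tested, and their groups overlapped. Of 6 haemocyte markers, He and eater were listed at 0 in every library and Hml had at most 0.0417 FPKM, while the sum, mostly from the scavenger receptor gene crq, went from 80.7 and 85.9 to 116.3 and 130.4 FPKM. Sr-CI, another scavenger receptor gene of the list, had 1.53 and 3.003 FPKM against 12.6 and 18.0 FPKM, a log2 difference of 2.33 (limma adjusted p = 0.0785), which lies among those of Snap, Spn77Bc and Rbbp5. The 5 fat body markers summed to at most 9.66 FPKM. Summed visceral muscle markers stood at 87.0 FPKM in mCherry RNAi replicate 1 and at 12.8 to 14.1 FPKM in the other 3 libraries. The part of these cell types in the values of the 7 genes was not tested.

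The genes whose pattern over the 4 libraries was most like that of the stretch lay elsewhere in the genome. Likeness was the Euclidean distance between log2(FPKM + 1) values, each centred on the gene's own mean, and the mean centred profile of the 7, over 6406 other genes that averaged 5 FPKM or more. The nearest was Rpt3R, a paralog of a proteasome ATPase subunit, at a distance of 0.23, followed by Rpt6R, another such paralog, at 0.30. Rpt3R was listed at 0 in each control library, and its Piwi RNAi values were 12.4 and 16.5 FPKM. Rpt6R had 0.737 and 0.724 FPKM against 21.4 and 34.8 FPKM. CG43117, CG15073 and CG34253 followed at 0.70, 0.89 and 0.98. The 7 genes themselves lay 0.78 to 2.01 from their own mean profile, so Rpt3R, Rpt6R and CG43117 were nearer to that mean than any of them. Of the 5, only CG34253 is on 3L. All 5 averaged under 5 FPKM in mCherry RNAi, so they passed this cut only through their Piwi RNAi values. With 4 libraries in 2 groups, such likeness mostly restates a large difference between the groups.

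**Figure D4:**
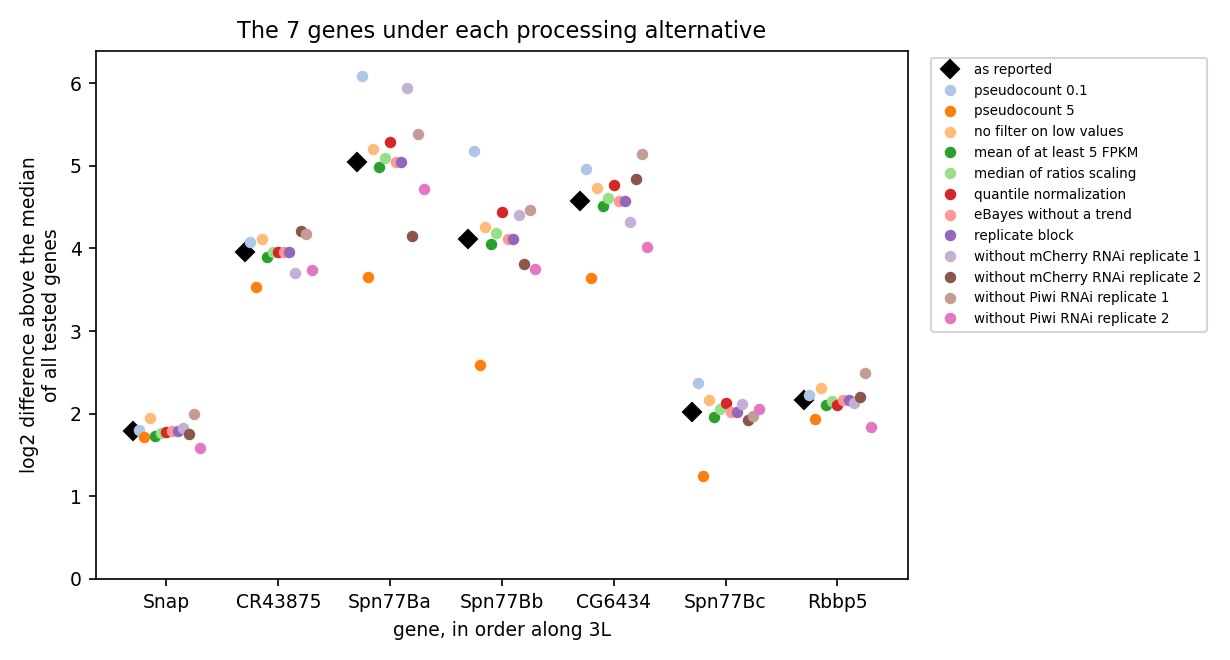
Log2 difference of each of the 7 genes above the median of all tested genes of the same fit, as reported (black diamonds) and under each of 12 alternatives (coloured points), by gene in order along 3L. Every point lies above 0, under each setting the 4 genes from CR43875 to CG6434 stand above the other 3, and Spn77Ba and Spn77Bb move most with the pseudocount.

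The direction and the layout of the differences were steadier than the calls. All 7 log2 differences were positive under each of the 12 alternatives, and the lowest was 1.53, for Spn77Bc at a pseudocount of 5. With pseudocounts of 5 and 0.1 Spn77Ba reached its lowest and highest differences, 3.93 and 6.49, and so did Spn77Bb, 2.87 and 5.58. The control libraries pulled Spn77Ba apart, to 6.22 without mCherry RNAi replicate 1 and 4.61 without replicate 2. Snap ranged from 1.76 with median of ratios scaling to 2.37 without Piwi RNAi replicate 1, and Rbbp5 from 2.14 to 2.86 under the same alternatives. Spn77Ba stayed within the 4 largest differences of the table throughout. The other genes did not: CG6434 fell as far as rank 8, Spn77Bb to 7 and CR43875 to 19. Rbbp5 fell as far as rank 81, Spn77Bc to 70 and Snap to 112. Of the 7 genes, 7 were among the 51 genes called higher as reported, and 2 were among 25 after quantile normalization. At a pseudocount of 0.1, 6 (all but Spn77Ba) were among 50. CR43875 was the 1 gene called higher with median of ratios scaling. When low values were kept or the trend was dropped, 0 genes of the table were called higher. With no library left out, all 7 had an unadjusted p under 0.05 in limma under each setting. So did 1282 to 2302 of all tested genes. As the 7 genes were chosen on this contrast, these counts describe the calls and test nothing.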

How the data were processed

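RNA of sorted intestinal stem cells was extracted with Trizol and sequenced from TruSeq libraries, per the labels. The authors deposited 1 table of FPKM values, a row per gene and a column per library. Per the submitters' processing notes, TopHat and Cufflinks were used. Tool versions, genome build, annotation and strand setting: not given in the sources used here.

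Values were compared as log2(FPKM + 1) with limma 3.58.1 in R 4.3.3 (lmFit, eBayes with a trend, two-sided tests) in the 8313 genes averaging 1 FPKM or more. Benjamini-Hochberg adjustment ran over all of these, with a threshold of 0.05; the fit had 2 residual degrees of freedom. It was tested on simulated data. This scale understates the change of low genes. With 2 pools per group, the only spread behind the p-values is that between pools of flies. Each gene's variance was also drawn towards that of genes at similar levels, with 2.86 prior degrees of freedom.

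The 7 genes, the lists and the alternatives were chosen with earlier results of these data known. Named list genes were those called and the 2 with the smallest p per list, and others are marked in the text.

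Of 15495 rows, 14845 matched BDGP6.54 by identifier, 210 by symbol and 222 by synonym. Fragments were estimated with Python 3.11.15 from low values of other genes with 1 transcript of at least 800 nt, taking 130 nt off its length. Between 86.6% and 88.5% of low values then lay within 0.1 of a whole number, where even spacing gives 20%. The depths and the 130 nt were chosen to raise this share, so it is no separate check of them. Where several depths scored nearly as well, the smallest was taken. Intervals (scipy 1.17.1) cover counting error only.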

Additional observations from a re-analysis of the deposited data

How the results depend on the processing

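The 7 genes' median log2 difference of 4.33 was 2.87 at a pseudocount of 5, 3.95 with median of ratios scaling, and 3.98 to 4.55 with a library left out. The median of all tested genes, 0.37, became −0.0080 with that scaling. Counts of calls depended on the processing, and the cause was not tested. The 51 higher and 47 lower calls became 1 and 7 with median of ratios scaling, 25 and 10 with quantile normalization, 82 and 85 in genes averaging 5 FPKM or more, 0 and 4 without a trend, and 0 and 0 with no filter on low values (2268 genes at an unadjusted p under 0.05 in limma). Leaving out any library gave 0 calls in limma, where 619 to 3195 genes had an unadjusted p under 0.05. With the replicate number as a replicate block there were 89 and 105 calls. The labels do not say what the number marks, and deviations of same-numbered libraries correlated at r = 0.25 across 8313 genes, which are not independent replicates.

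Of the 20 nearest tested genes, 1 was called at a pseudocount of 5 and 1 with the block, CG17145 in both cases. The median of the 5 flanking genes, 0.82, was 0.41 with median of ratios scaling, 0.52 with quantile normalization and 0.52 to 0.94 with a library left out. The difference of CG6951, 0.13, was −0.22, −0.15 and −0.28 with median of ratios scaling, quantile normalization and without Piwi RNAi replicate 1, and up to 0.54 with another library left out. That of eRF1, 0.03, was −0.37 and −0.18 under these scalings, −0.079 without mCherry RNAi replicate 1 (0.15 without replicate 2) and −0.05 without Piwi RNAi replicate 2.

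The protease and Toll list went from 1 call to 0 at a pseudocount of 0.1, with no filter, under both scalings, without a trend and when any 1 library was dropped. Its median was 0.28 in genes averaging 5 FPKM or more, −0.56 with median of ratios scaling and −0.26 to −0.015 with a library left out. The serpin median lay between −1.04 and 0.083 when 1 library was dropped. The SNARE median was 0.081 and 0.10, and that of the H3K4 list 0.073 and 0.083, under median of ratios scaling and quantile normalization, where the median of the 20 nearest genes was 0.060 and 0.15. Depth limits Spn77Ba, Spn77Bb, CG6434 and Spn77Bc most, at 1 to 11 fragments per control library.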
